A study of Mus musculus with 13 samples.

Results

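Metallothioneins and the carriers that move zinc across membranes were followed here through the mouse colon epithelium of germ-free and antibiotic-treated mice. The genes are the metallothioneins Mt1 and Mt2, the metal-sensing transcription factor Mtf1, the exporters Slc30a1 and Slc30a10, and the importers Slc39a4 and Slc39a5. They were selected on their shared role in zinc handling and on their measured levels across cell types and conditions of these same cells, and they are 7 of the 32285 genes in the deposited matrix. All 7 had at least 1 UMI (unique molecule) in each condition.

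Metallothioneins are small cysteine-rich proteins that bind zinc and copper. Zinc entering a cell is sensed by MTF1, which binds short metal response elements near the start of its target genes and raises metallothionein and Slc30a1 transcription. In the intestine, SLC39A4 is known to take up zinc from the lumen, SLC39A5 lies on the basolateral side, and SLC30A1 exports zinc across the plasma membrane. SLC30A10 belongs to the same exporter family and is known chiefly as a manganese exporter.

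The study measured single epithelial cells sorted from whole colons, EPCAM-positive and CD45-negative, with CD44-positive (proliferative) and CD44-negative (differentiated) cells taken in equal numbers. The germ-free group was germ-free C57BL/6J mice, and the antibiotic group was wild type C57BL/6J mice given antibiotics whose composition the labels do not give. Ages and sexes are not given there, and conventionally raised control mice were not analysed here. The epithelium was freed with EDTA, a chelator of divalent metals, in both conditions.

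The germ-free cells numbered 768 with 3100880 UMI, and the antibiotic cells 3415 with 36530277 UMI. Cells of each condition were pooled before the sort and the labels place each condition in its own batch, which means that the effects of condition and of batch cannot be told apart and that no test could be run. Cell names split the pools further into germ-free cell sets 3 and 4 and antibiotic cell sets 1, 2 and 3. The antibiotic numbers equal the library numbers of the labels and the germ-free numbers do not, so a cell is placed here by its condition alone. Median depth was 1045 and 4682 UMI per cell in the germ-free sets, against 6599 to 7420 in the antibiotic sets, and mitochondrial genes took 18.7% of germ-free and 12.4% of antibiotic UMI. A count of 3 UMI corresponds to 0.967 CPM (UMI per 1000000) in all germ-free cells, to 7.44 CPM in germ-free cell set 3 alone, and to 0.0821 CPM in all antibiotic cells.

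The antibiotic cell sets shared cell barcodes: 810 barcodes occurred in more than 1 of them, and none was shared with or between the germ-free sets. The shallower copies were 837 cells with a median of 1082 UMI, and 435 of them fell into no cell gate. Across the 864 same-barcode pairs the median correlation of expression was 0.496, against 0.270 with the partners shuffled among all these pairs. With only the deepest cell of each barcode kept, the log2 ratios of Mt1, Mt2 and Slc39a4 were 0.64, 1.68 and -0.84, beside 0.63, 1.65 and -0.84 with all cells, and the 7 genes kept their directions. Antibiotic levels within gates moved by at most 13.7%.

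Words such as higher and lower are used below of a gene whose cell sets were apart, meaning that the germ-free sets were both above the highest, or both under the lowest, of the antibiotic sets. Intervals in parentheses are exact 95% intervals of the UMI counts. They cover counting error only and say nothing of differences between mice. Log2 ratios put germ-free over antibiotic and were taken after adding 1 to each CPM.

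The promoter stretches of Mt1, Mt2 and Slc30a1 are shown because they hold the letters of metal response element cores. They come from RefSeq on GRCm38.p6, plus strand, and run from 250 bases before the RefSeq start to 30 after it. The gene positions given further down are from GENCODE, and their starts differ. The GENCODE start of Mt2 lies past the end of its printed stretch. Capitals mark matches to TGCACNC or TGCGCNC or to their reverse complements. The stretch of Mt1 is chr8:94178839-94179118, that of Mt2 is chr8:94172368-94172647 and that of Slc30a1 is chr1:191906531-191906810.
Mt1: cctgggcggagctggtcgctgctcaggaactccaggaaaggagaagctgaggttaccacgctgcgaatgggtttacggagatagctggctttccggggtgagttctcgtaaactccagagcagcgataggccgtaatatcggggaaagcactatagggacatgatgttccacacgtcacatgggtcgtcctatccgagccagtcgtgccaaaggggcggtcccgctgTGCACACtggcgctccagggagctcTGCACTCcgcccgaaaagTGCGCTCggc
Mt2: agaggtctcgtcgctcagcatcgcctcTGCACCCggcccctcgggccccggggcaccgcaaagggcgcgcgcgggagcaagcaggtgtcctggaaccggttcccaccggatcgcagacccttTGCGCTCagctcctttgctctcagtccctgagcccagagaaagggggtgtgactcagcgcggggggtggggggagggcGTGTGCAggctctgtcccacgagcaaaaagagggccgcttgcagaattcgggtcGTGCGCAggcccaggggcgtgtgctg
Slc30a1: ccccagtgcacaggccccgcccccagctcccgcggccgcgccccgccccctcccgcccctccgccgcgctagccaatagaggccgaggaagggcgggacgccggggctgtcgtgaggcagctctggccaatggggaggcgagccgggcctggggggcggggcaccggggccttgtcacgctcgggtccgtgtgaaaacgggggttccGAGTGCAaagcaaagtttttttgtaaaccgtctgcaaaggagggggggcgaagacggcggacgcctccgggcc

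The counts that follow are for the whole RefSeq window of 300 bases, which ends 50 bases after the start. Mt2 held 4 such sites, Mt1 held 3, and Slc30a1 and Slc30a10 held 2 each without overlap. The second Slc30a1 site begins just past the printed stretch, and in Slc30a10 one further match overlaps another on the opposite strand. Mtf1 held 0, and the windows of Slc39a5 held 1 and 0. Of the 32851 windows of the table, 25.7% held at least 1 site, 6.14% at least 2, 1.31% at least 3 and 0.295% at least 4. A match describes letters only and shows no binding, and a window with none says nothing about the factor. A window was found for 6 of the 7 genes; Slc39a4 is named only.

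Both metallothioneins were higher in germ-free cells. In CPM, Mt1 stood at 923 and 992 in germ-free cell sets 3 and 4, against 578, 777 and 562 in antibiotic cell sets 1, 2 and 3. The sums over conditions were 983 CPM (948 to 1018) in germ-free cells and 637 CPM (628 to 645) in antibiotic cells, a 1.54-fold difference (1.49 to 1.60) and a log2 ratio of 0.63. Both germ-free sets lay above the highest antibiotic set, by less than the antibiotic sets differed among themselves. Mt1 was also among the more abundant transcripts, with a higher CPM than 98.3% of the 6462 ranked genes (those with at least 100 UMI in all and 20 CPM in the higher condition).

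Mt2 stood at 203 and 199.8 CPM in the germ-free sets, against 73.4, 68.2 and 54.1 CPM in the antibiotic sets. Its sums were 200.3 CPM in germ-free and 62.9 CPM in antibiotic cells, 3.18-fold higher (2.91 to 3.48), with a log2 ratio of 1.65. The lowest germ-free set lay far above the highest antibiotic one, and the log2 ratio exceeded that of 99.0% of ranked genes. For Mt1 the same share was 94.1%. In mm10 (GENCODE vM21) Mt2 lies at chr8:94172664-94173568 and Mt1 at chr8:94179082-94180327, both on the plus strand and with 5513 bases between them. They are close paralogs, and the sources used here do not say how reads common to both were counted, so the split between them is uncertain. Mt3 and Mt4, in the same cluster, were near 0, with 2 and 0 UMI in germ-free cells and 39 and 19 UMI in antibiotic cells.

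Mtf1, the metal sensor, was low and close to equal. It stood at 22.3 and 24.5 CPM in the germ-free sets, against 22.0, 18.9 and 20.01 CPM in the antibiotic sets. The sets were apart, by a small margin, and the ratio of the sums was 1.20 (0.936 to 1.53), an interval that includes 1. Its log2 ratio was 0.26 with all cells and -0.17 with each cell thinned to 1000 UMI, so no direction is given for it. Mtf1 lies at chr4:124802104-124849800, plus strand.

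By cell sets both exporters were lower in germ-free cells, by very different amounts. Slc30a1 stood at 27.3 and 30.0 CPM in the germ-free sets, against 32.7, 32.8 and 38.2 CPM in the antibiotic sets. The ratio of its sums was 0.841 (0.673 to 1.04), again with 1 inside the interval. Within the 7 cell gates described below, the Slc30a1 value was higher in germ-free cells in 4 and lower in 3. Each of those intervals included 1, so the lower sums were not repeated within gates. Slc30a10 stood at 4.96 and 2.59 CPM in the germ-free sets, against 14.6, 13.9 and 14.1 CPM in the antibiotic sets. It was 4.88-fold lower (2.55 to 10.7), but the germ-free value rests on 9 UMI, against 517 in antibiotic cells. At that level it did not reach the 20 CPM of a ranked gene. Slc30a1 lies at chr1:191906767-191913247 and Slc30a10 at chr1:185454848-185468762, both on the plus strand.

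The importers were lower in germ-free cells too. Slc39a4, the luminal importer, stood at 39.7 and 33.4 CPM in the germ-free sets, against 58.2, 63.0 and 63.0 CPM in the antibiotic sets. It was 1.81-fold lower (1.49 to 2.22), with a log2 ratio of -0.84 that only 2.66% of ranked genes undercut. That rank is for the summed UMI of all cells. The log2 ratio of Slc39a4 was -0.34 with thinned cells and -0.48 as a mean of cells. With the cell gates described below weighted equally it was -0.45. Under all alternatives it stayed below 0, from -0.94 to -0.34, so its size depends on the setting. Slc39a5, the basolateral carrier, stood at 27.3 and 32.2 CPM, against 37.2, 45.8 and 40.6 CPM in the antibiotic sets. The ratio of its sums was 0.760 (0.613 to 0.932). Slc39a4 lies at chr15:76612383-76617384 and Slc39a5 at chr10:128395931-128401229, both on the minus strand.

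**Figure D1:**
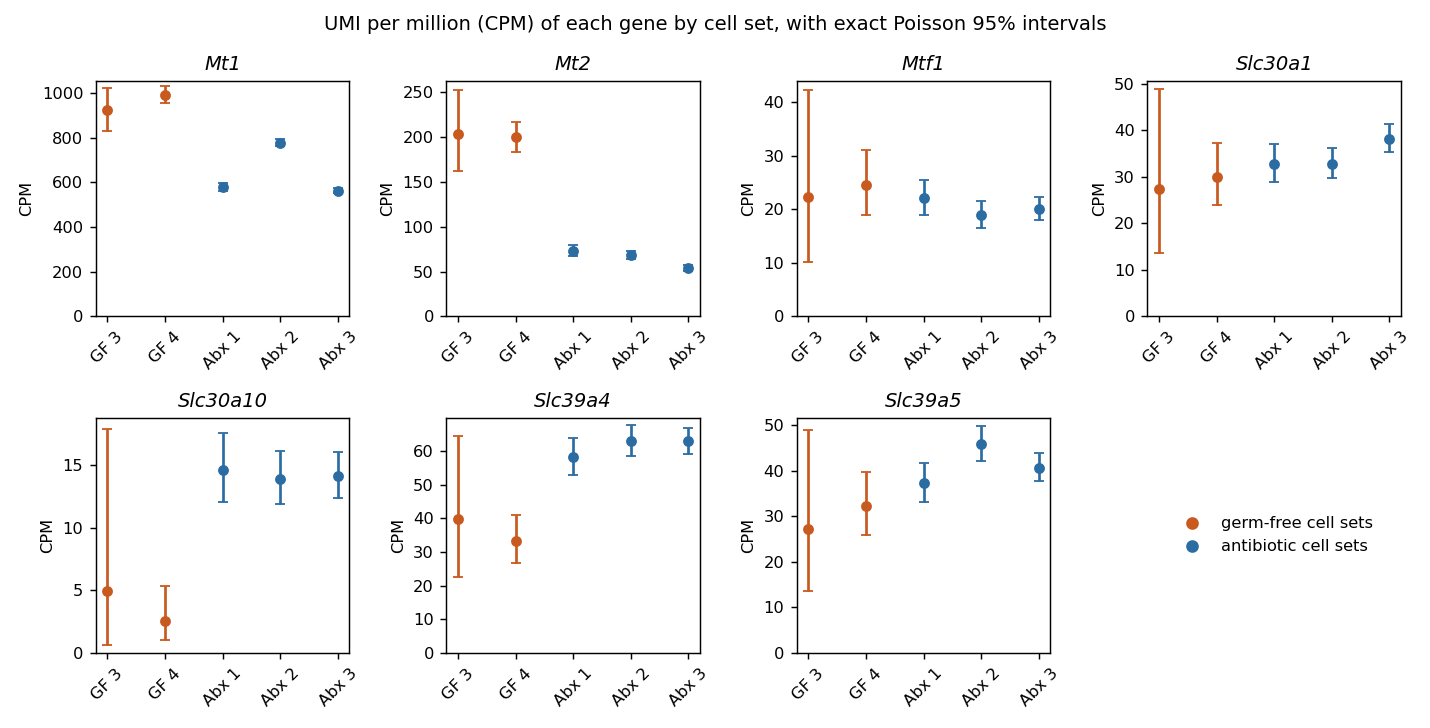
Level of each of the 7 genes in CPM (vertical axis) in germ-free cell sets 3 and 4 (left, orange) and antibiotic cell sets 1, 2 and 3 (right, blue); bars are exact Poisson 95% intervals. Both germ-free points of Mt2 sit at 199.8 to 203 CPM, above the antibiotic points at 54.1 to 73.4 CPM, while the germ-free points of Slc39a4 sit below all 3 antibiotic points.

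By cell sets, then, 3 of the 7 genes lay higher and 4 lower in germ-free cells, with Mtf1 reversing under thinning. Of the 6462 ranked genes 53.9% had their sets apart, 29.4% higher and 24.5% lower. By at least 2-fold as well, Mt2 alone of the 6 ranked genes was higher and 0 were lower, against 1.72% and 1.83% of ranked genes. The genes had been chosen with these values known, and nothing is read from their count. Depth moved with it: after thinning to 1000 UMI per cell, 1 gene in place of 4 was lower. The balance of the sexes moved too. In germ-free cells 356 had a UMI of Xist and none of a Y gene and 175 the reverse, against 554 and 1620 in antibiotic cells. With only the cells in which a Y gene but not Xist was found, a comparison chosen after the data were seen, 1 gene was higher and 2 lower by cell sets. In those cells the log2 ratios of Mt1 and Mt2 were 0.69 and 1.30. The number of all genes apart changed between settings too, from 1121 to 3528 higher and from 1160 to 3143 lower. The shares above are those of all cells, so they are no background for the counts after thinning or in Y-gene cells. The part of sex and depth in the remaining differences was not tested.

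To see where in the epithelium these transcripts lay, cells were sorted into gates by marker genes, none of which is one of the 7. A cell took the gate with the highest marker score. The goblet gate (Muc2, Clca1 and others) held 157 germ-free and 355 antibiotic cells. The crypt gate (Lgr5, Smoc2 and others) held 75 and 429 cells, and the cycling gate (Mki67, Top2a and others) held 85 and 303. The colonocyte gate (Car1, Krt20, Slc26a3 and others) held 224 and 1336, and 226 germ-free and 975 antibiotic cells fell into no gate. Colonocytes were split by their own markers: 38 germ-free and 452 antibiotic cells were proximal (Cyp2c55, Fabp2), 39 and 134 distal (Slc37a2, Atp12a), 39 and 309 surface (Aqp8, Guca2a) and 64 and 228 of the Reg3b type (Reg3b, Reg3g, Gsta1). The Reg3b markers came from an earlier grouping of these cells that had been named for its metallothioneins, so a high level in that gate is partly built in. A gate is a range of a score and not a cell type. Near the cut lay 119 goblet, 89 crypt, 78 cycling and 161 colonocyte cells. Goblet-gated cells had a median of 43.5 UMI per 10000 of goblet markers and colonocyte-gated cells 1.79, but the goblet gate also had 27.6 of colonocyte markers, against 161 in colonocyte-gated cells.

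Mt1 was found in every gate, and its order along the epithelium differed between the pools. In germ-free cells it ran from 1785 CPM (1626 to 1956) in distal colonocytes through 1229 CPM in Reg3b and 1178 CPM in proximal colonocytes. Then followed 885 CPM in crypt, 843 CPM in cycling, 570 CPM in goblet and 529 CPM in surface cells. The intervals of neighbours overlapped between Reg3b and proximal, between crypt and cycling, and between goblet and surface cells. In antibiotic cells it was at 1375 CPM (1338 to 1412) in Reg3b colonocytes, 936 in cycling, 745 in distal, 582 in proximal, 452 in surface, 418 in crypt and 405 in goblet cells.

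The antibiotic order rests on cell sets that differ among themselves. Reg3b colonocytes held 1603, 1875 and 775 CPM of Mt1 in antibiotic cell sets 1, 2 and 3, and cycling cells held 634, 939 and 1095 CPM. These ranges overlap, so the top of that order is not separated by the spread between sets. Proximal colonocytes of the 3 sets held 524, 737 and 506 CPM and goblet cells 387, 429 and 399 CPM, which do not overlap.

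Between the pools, the Mt1 value was higher in germ-free cells in 5 of the 7 gates, and in 4 of those the counting interval lay above 1. It reached 2.40-fold (2.16 to 2.66) in distal colonocytes, 2.12-fold (1.88 to 2.38) in crypt cells, 2.02-fold (1.76 to 2.31) in proximal colonocytes and 1.41-fold (1.24 to 1.59) in goblet cells. Surface colonocytes gave 1.17 (0.929 to 1.46). In Reg3b colonocytes the ratio was 0.894 (0.808 to 0.988) and in cycling cells 0.901 (0.813 to 0.996), just below 1. The antibiotic sets on their own spread by more than that in both of these gates, and the ratios were 1.14 in Reg3b cells without antibiotic set 2 and 1.02 in cycling cells without antibiotic set 3.

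Mt2 values were higher in germ-free cells in 7 of 7 gates, and the counting interval lay above 1 in 6 of them. Higher values in 7 of 7 gates, whatever their intervals, were found for 6.56% of ranked genes. Of the 7 genes 0 were lower in 7 of 7 gates, as 4.92% of ranked genes were. Distal colonocytes held 329 CPM in germ-free and 80.8 CPM in antibiotic cells, 4.08-fold (3.12 to 5.29). The antibiotic sets spread widely there, over 63.2, 22.2 and 126 CPM in sets 1, 2 and 3, and without set 3 the ratio was 8.36. Proximal colonocytes held 194 and 49.9 CPM (3.88-fold, 2.69 to 5.45), and goblet cells 101 and 27.4 CPM (3.67-fold, 2.59 to 5.17). Crypt cells held 188 CPM in germ-free and 60.5 CPM in antibiotic cells, and cycling cells 234 and 94.8 CPM. In Reg3b colonocytes the levels were 227 and 150.3 CPM (1.51-fold, 1.18 to 1.92), where antibiotic cell sets 1, 2 and 3 spread over 280.3, 175 and 51.1 CPM and the ratio without set 3 was 1.05. Surface colonocytes were the poorest in Mt2 in both pools, with 18.9 CPM from 3 UMI in germ-free cells and 13.1 CPM in antibiotic cells, an interval of the ratio that includes 1. The germ-free side rests on cell set 4. Set 3 had 8 to 18 cells in the crypt gate and in each colonocyte subtype. The comparison without set 4 was chosen after the data were seen. The Mt2 ratio was then 2.63 in cycling cells, from 12 UMI, and 5.36 in proximal colonocytes, from 6 UMI. It was 1.89 in crypt and 2.07 in goblet cells, from 4 UMI each, and 0.569 in Reg3b colonocytes, from 1 UMI. Surface colonocytes of set 3 held 0 Mt2 UMI. In distal colonocytes set 3 held 0 Mt2 and 5 Mt1 UMI, and the Mt1 ratio was 0.611.

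**Figure D2:**
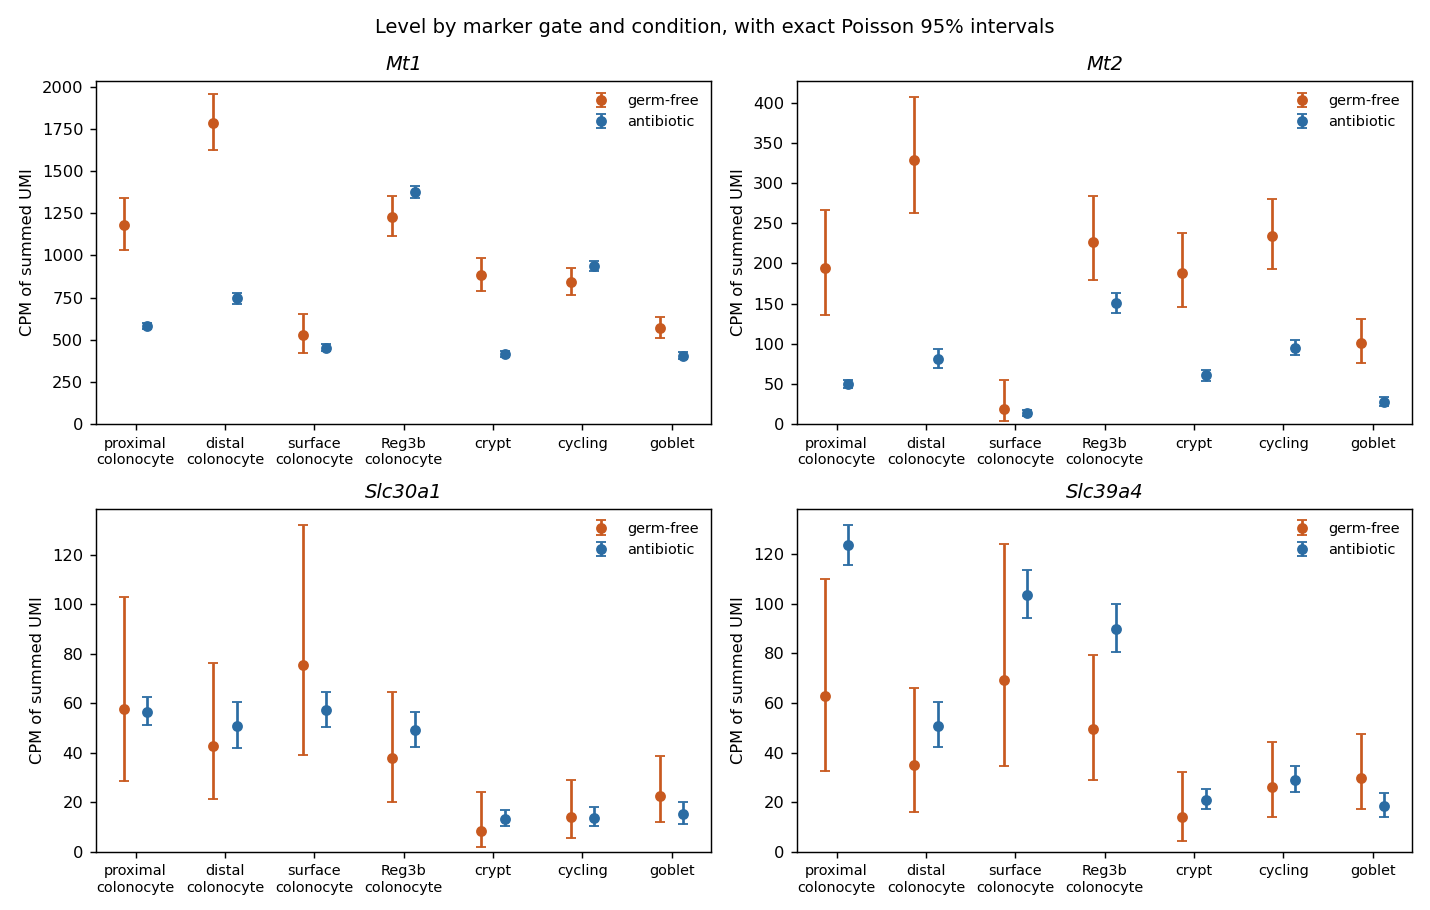
CPM of summed UMI (vertical axis) of Mt1, Mt2, Slc30a1 and Slc39a4 in 7 marker gates, germ-free (orange, left) and antibiotic (blue, right); bars are exact Poisson 95% intervals. Germ-free Mt2 lies above antibiotic Mt2 in each gate, and in antibiotic cells both carriers have a larger value in each colonocyte gate than in the crypt and cycling gates.

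Tuft and enteroendocrine cells gave the lowest Mt1 level seen. Germ-free cells of these gates were too few to compare, with 1 tuft and 0 enteroendocrine cells. The 17 antibiotic cells held 5 Mt1 UMI, 41.0 CPM (13.3 to 95.8), in 2 of 17 cells (11.8%, 1.46 to 36.4). Their median depth was 5010 UMI. In goblet-gated antibiotic cells, with a median of 5787 UMI, 47.6% had an Mt1 UMI.

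Levels along the crypt to surface axis differed from carrier to carrier. Colonocyte-gated cells were set against the crypt and cycling gates joined. Slc30a1 held 49.5 CPM in colonocytes and 11.6 CPM in crypt cells of the germ-free pool, a log2 ratio of 2.00, and 53.3 and 13.5 CPM in the antibiotic pool, a log2 ratio of 1.90. It was higher in colonocytes in all 5 cell sets, as 20.1% of ranked genes were, and at least 2-fold higher in both pools, as 5.79% were. None of the 7 genes was at least 2-fold lower in colonocytes in both pools, as 10.9% of ranked genes were. Between the pools its colonocyte levels gave a ratio of 0.928 (0.689 to 1.23).

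Slc39a4 held 50.4 CPM in colonocytes and 20.9 CPM in crypt cells of the germ-free pool, a log2 ratio of 1.23, and 97.1 and 24.4 CPM in the antibiotic pool, a log2 ratio of 1.95. The germ-free ratio rests on germ-free cell set 4: set 3 alone, with 1 UMI in colonocytes and 3 in crypt cells, gave -1.75. Among germ-free colonocytes it held 62.9 CPM in proximal, 69.3 in surface, 49.5 in Reg3b and 34.9 in distal cells, from 9 to 17 UMI each, and the intervals overlap. Among antibiotic colonocytes the level ran from 123.5 CPM in proximal through 104 in surface and 89.7 in Reg3b to 50.6 in distal cells. The 3 antibiotic sets held 122, 120.2 and 127 CPM in proximal cells and 46.0, 72.0 and 39.3 CPM in distal cells, so the proximal and distal levels did not overlap.

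Between the pools the Slc39a4 value was lower in germ-free cells in all 4 colonocyte subtypes, which held for 9.63% of ranked genes. The counting interval lay below 1 in proximal (0.262 to 0.893) and Reg3b cells (0.318 to 0.897). It included 1 in distal (0.307 to 1.35) and surface cells (0.332 to 1.21). Over all colonocytes, with the subtypes in unlike proportions in the pools, the ratio was 0.520 (0.388 to 0.683). Germ-free set 3 held 1 UMI in colonocytes and 0 in those with a subtype, and without set 4 the ratio was 0.104. In the crypt and cycling gates joined it was 0.856 (0.498 to 1.38), and 1.48, from 3 germ-free UMI, without germ-free set 4. Goblet cells gave 29.5 CPM in germ-free and 18.5 CPM in antibiotic cells, a ratio of 1.60 (0.874 to 2.77).

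Slc30a10 held 3.81 CPM in colonocytes and 4.64 CPM in crypt cells of the germ-free pool, from 4 UMI in each. In the antibiotic pool it held 20.8 and 6.56 CPM, and colonocytes held more in each antibiotic set. In germ-free colonocytes it was 5.47-fold lower (2.12 to 20.2) than in antibiotic colonocytes, 4 UMI against 395. Without germ-free set 4 the ratio was 0.483, from 1 germ-free UMI. Antibiotic levels ran from 27.1 CPM in proximal through 23.2 in Reg3b and 18.4 in surface to 7.12 in distal colonocytes. Slc39a5 and Mtf1 were nearly level along the axis: the log2 ratio of colonocyte over crypt cells was -0.24 in germ-free and 0.20 in antibiotic cells for Slc39a5, and -0.17 and 0.15 for Mtf1. For Mt1 it was 0.54 in germ-free and 0.15 in antibiotic cells, and for Mt2 0.05 and -0.20. The antibiotic sets did not share a sign for either metallothionein, with Mt1 at 0.51, 0.43 and -0.27 in sets 1, 2 and 3.

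**Figure D3:**
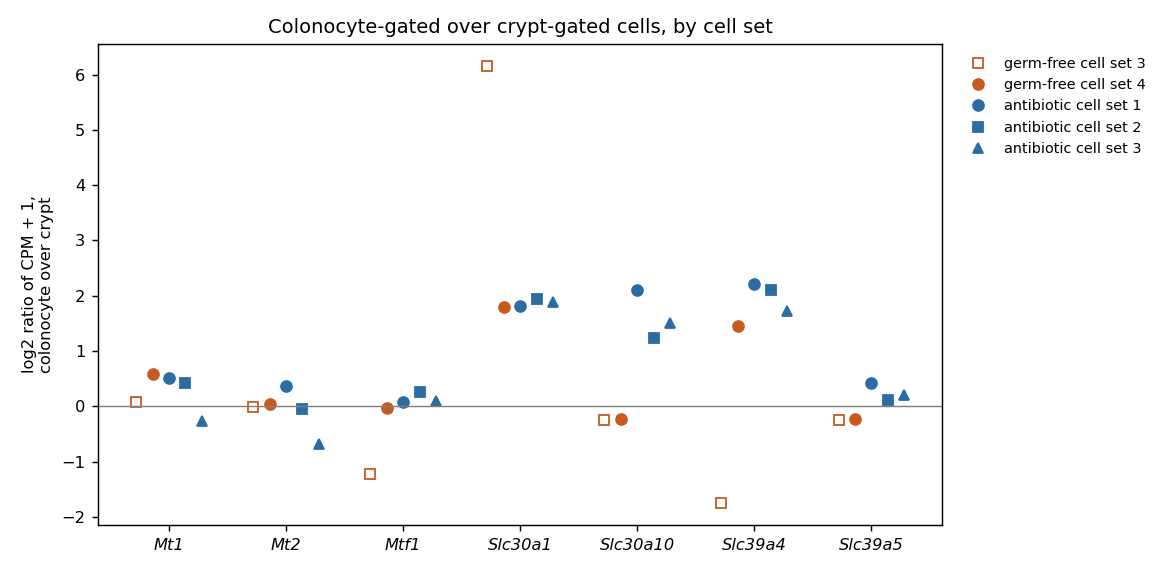
Log2 ratio of CPM + 1 of colonocyte-gated over crypt- and cycling-gated cells (vertical axis) for each gene in each cell set, germ-free (orange, left) and antibiotic (blue, right). Slc30a1 lies above 0 in all 5 sets and Slc39a4 in 4 of 5; germ-free cell set 3 (open squares) rests on few counts, and its Slc30a1 point at 6.16 has 0 UMI in crypt cells.

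The mixture of the metallothioneins differed between the pools as well, within the uncertainty of their split stated above. Mt2 made up 16.9% (15.7 to 18.2) of all Mt1 and Mt2 UMI in germ-free cells and 8.997% (8.65 to 9.35) in antibiotic cells. By cell set it was 18.1% and 16.8% in germ-free sets 3 and 4, against 11.3%, 8.08% and 8.78% in antibiotic sets 1, 2 and 3, without overlap. By gate, the share was highest in germ-free cycling cells, 21.7% (18.3 to 25.4), against 9.20% (8.34 to 10.1) in antibiotic cycling cells. Goblet cells had 15.0% in germ-free and 6.34% in antibiotic cells. Crypt cells had 17.5% (13.9 to 21.7) and 12.7% (11.4 to 14.0), intervals that overlap. Reg3b and distal colonocytes each had 15.6% in germ-free cells. Single antibiotic sets came near that, with 14.9% in Reg3b cells of set 1 and 13.9% in distal cells of set 3. Surface colonocytes had the smallest share in both pools, 3.45% (0.717 to 9.75) in germ-free and 2.82% (2.15 to 3.64) in antibiotic cells.

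**Figure D4:**
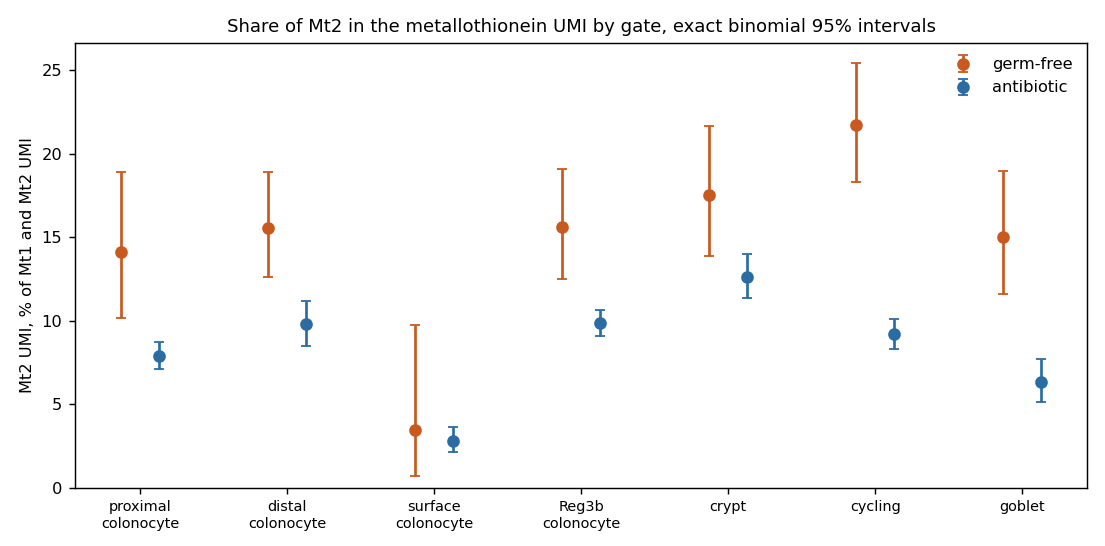
Mt2 UMI as a percentage of Mt1 and Mt2 UMI together (vertical axis) by marker gate, germ-free (orange, left) and antibiotic (blue, right), with exact binomial 95% intervals. The germ-free point is above the antibiotic one in each gate, and surface colonocytes are lowest in both pools at 3.45% and 2.82%.

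Within each pool, a small share of cells carried much of the metallothionein. The top 5% of cells by count held 47.8% of the Mt1 UMI of germ-free cells and 60.0% of those of antibiotic cells, and 53.0% and 77.1% of the Mt2 UMI. This was not particular to the metallothioneins, as the same share of cells held 57.55% and 51.68% of the Slc39a4 UMI. Cells were ranked by UMI without regard to depth. With each cell thinned to 1000 UMI the Mt1 shares were 33.7% in germ-free and 47.6% in antibiotic cells. A single antibiotic distal colonocyte held 497 of the 1779 Mt1 UMI of its gate (27.9%) and a single cell held 128 of its 193 Mt2 UMI (66.3%). In germ-free Reg3b colonocytes, 1 cell held 30.1% of the Mt1 UMI and 1 cell 39 of the 78 Mt2 UMI. Levels of these gates rest in part on single cells.

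With each cell thinned to 1000 UMI, which left 625 germ-free and 2891 antibiotic cells and dropped 143 and 524 shallower ones, 42.6% (38.7 to 46.5) of germ-free cells had an Mt1 UMI, against 24.7% (23.2 to 26.4) of antibiotic cells. Without thinning the shares were 61.7% and 53.6%. For Mt2 the thinned shares were 12.6% (10.1 to 15.5) in germ-free and 4.22% (3.52 to 5.02) in antibiotic cells. Of the thinned cells with an Mt2 UMI, 55 of 79 germ-free (69.6%) and 74 of 122 antibiotic cells (60.7%) also had an Mt1 UMI. Mt1 averaged 2.00 UMI per 1000 in germ-free cells with Mt2 and 0.628 in those without, and 1.90 and 0.395 in antibiotic cells. These values mix gates of unlike Mt1 level. In germ-free goblet cells the averages were close, 0.462 and 0.412, and 5 of 13 cells with Mt2 had Mt1. In crypt cells they were 1.33 and 0.621 in the germ-free pool, and 0.667 and 0.264 in the antibiotic pool.

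The other zinc carriers did not move as a block. Of the 20 further genes of the Slc30 and Slc39 families, 13 had at least 100 UMI, and 5 of these were higher, 2 lower and 6 not apart. Of the 9 that were also ranked, 4 were higher, 2 lower and 3 not apart. Among all ranked genes 29.4% were higher and 24.5% lower, so nothing particular to zinc carriers is read from these counts. The median log2 ratio of the 13 was 0.11, against 0.05 over all ranked genes and -0.24 over the 7 genes. Slc30a4, a vesicular zinc exporter, had 52.6 CPM in germ-free and 38.8 CPM in antibiotic cells, 1.35-fold higher (1.14 to 1.59). Slc39a9 had 69.7 and 59.4 CPM and Slc30a9 had 53.2 and 45.2 CPM, both higher by cell sets. Slc39a11 had 63.5 and 68.2 CPM, and its sets were not apart. The 2 lower genes, named after their values were seen, were Slc39a1, a plasma membrane zinc importer, with 21.9 CPM in germ-free and 35.2 CPM in antibiotic cells (0.622-fold, 0.480 to 0.795), and Slc39a7, which releases zinc from the endoplasmic reticulum, with 18.1 and 29.0 CPM (0.623-fold, 0.467 to 0.815).

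Among 11 measured copper and iron genes 1 was higher and 3 were lower, with a median log2 ratio of -0.05. All 11 were ranked, and of all ranked genes 29.4% were higher and 24.5% lower. Tfrc, the transferrin receptor, had 290.2 CPM in germ-free and 157 CPM in antibiotic cells, 1.86-fold higher (1.73 to 1.99). The ferritin chains Fth1 and Ftl1 were lower, at 2529 and 422 CPM in germ-free cells, against 3316 and 783 CPM in antibiotic cells. Sod1, the copper and zinc superoxide dismutase, had 182 and 187 CPM, with sets not apart. Glucocorticoids are also known to raise metallothionein transcription. Of 9 glucocorticoid response genes, all of them ranked, 1 was higher and 2 lower, beside those same shares of ranked genes. Their median log2 ratio was -0.22. Nr3c1, the receptor, had 182 CPM in germ-free and 144 CPM in antibiotic cells and Errfi1 had 303 and 454 CPM. Fkbp5 had 225 and 232 CPM and Zfp36 had 153 and 179 CPM, neither apart.

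Genes of the early response to tissue dissociation moved with the condition. Of 14 measured, 0 were higher and 12 lower in germ-free cells, with a median log2 ratio of -0.58. Of the 12 that were ranked, 0 were higher and 10 lower, against 29.4% and 24.5% of all ranked genes. Jun had 489 CPM in germ-free and 848 CPM in antibiotic cells, Jund 264 and 618, and Atf3 519 and 718, while Fos at 583 and 649 CPM was not apart. The summed level of the list was 2854 and 2979 CPM in the germ-free sets, against 4156, 4461 and 4163 CPM in the antibiotic sets. Its part in the metallothionein and carrier differences was not tested. Markers of immune, stromal and endothelial cells were near 0 in both pools: 8 genes together had 7.44 and 8.90 CPM in the germ-free sets, against 12.1, 8.85 and 8.14 CPM in the antibiotic sets. Only Cd52 (5.16 CPM in germ-free and 4.96 CPM in antibiotic cells) and Pecam1 (2.90 and 3.26 CPM) had 100 UMI or more, and neither was apart.

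The genes most like each of the 7 were looked up by Pearson correlation of log2(CPM + 1) over 18 groups of cells (9 gates or gate remainders in each pool). The groups share pools and depth, so r is a description, and the value over the 9 antibiotic groups alone follows it. Mt1 was most like Ndufab1, the mitochondrial acyl carrier protein (r = 0.91, then 0.87), Glrx5, a mitochondrial glutaredoxin (0.89, then 0.85), and Cnih1 (0.87, then 0.85). Mt2 was most like Eif5, a translation initiation factor (0.86, then 0.74), Pla2g3 (0.86, then 0.55) and Usp50 (0.85, then 0.76). Mt1 and Mt2 themselves had r = 0.81, then 0.67.

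Slc30a1 was most like Misp, an actin-binding protein (0.97, then 0.98), Mep1b, the meprin beta subunit of the brush border (0.95, then 0.96), and Cdkn1a, the cell cycle inhibitor p21 (0.95, then 0.95). Slc39a4 was most like 2200002D01Rik (0.96, then 0.98), Ppfia3 (0.94, then 0.95) and Crb3, a polarity protein (0.93, then 0.98). Slc30a1 and Slc39a4 had r = 0.86, then 0.88. With Mt1, r was 0.15, then 0.17, for Slc30a1, 0.13, then 0.40, for Slc39a4, -0.26, then 0.22, for Slc30a10 and -0.21, then 0.74, for Slc39a5. Slc30a10, at 0 UMI in 4 groups, was most like Acaa1a, a peroxisomal thiolase (0.93, then 0.82), Esrra (0.85, then 0.74) and Gm49980 (0.81, then 0.49). Slc39a5 was most like Cfl2 (0.97, then 0.20), Lypla2 (0.96, then 0.18) and Trim26 (0.96, then 0.39), where 1 group at 0 UMI lay among the 18. Mtf1 had weaker matches, Leprot (0.76, then 0.63), Aftph (0.71, then 0.69) and Mpzl2 (0.71, then 0.76), and its r was 0.05, then 0.08, with Mt1 and 0.01, then 0.01, with Mt2.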

How the data were processed

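The authors deposited natural log values (ln of 1 + UMI per 10000 UMI of a cell) in a matrix of 32285 genes by 4183 cells, a scaling that the values themselves show. Dividing by each cell's smallest step gave whole numbers within 0.01 for 100% of 9481333 nonzero values, so UMI counts were recovered. Per the submitters' processing notes, Cell Ranger 7.0.0, kallisto, bustools and mm10 were used, with no role stated. The sources used here give neither the filters on cells nor the annotation release nor the use of strand.

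The labels list 13 libraries, 5 of cDNA and 8 of sample barcodes; the barcode libraries were not analysed here. Counts were summed per condition, cell set or gate and scaled to CPM, with exact Poisson intervals for sums, conditional binomial intervals for ratios and Clopper-Pearson intervals for shares, at 95%. These cover counting error only. With 1 pool per condition there was no test and no p-value. All deposited cells were kept, doublets included.

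A gene was ranked with at least 100 UMI in all and 20 CPM in the higher condition, and a list gene was measured with at least 100 UMI. Gates took the highest z-scored mean marker value above 0, with at least 2 markers found (3 for tuft and enteroendocrine cells), and at least 2 UMI of subtype markers. Comparisons needed 20 cells per condition. The 7 genes, the lists and the gates were chosen with earlier results of these data known. Named beside them were up to 4 genes of highest CPM per list and the 3 best-correlated genes of each of the 7, leaving out gate markers and ribosomal, mitochondrial, Xist and Y genes. The script of the contrast was first tested on simulated counts with known folds. SciPy 1.17.1, Scanpy 1.11.5, pandas 2.3.3, NumPy 2.4.6 and matplotlib 3.10.9 ran under Python 3.11.15.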

Additional observations from a re-analysis of the deposited data

Results flagged for a closer look

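In 4 results every cell set of one group moved one way and every cell set of the other the opposite way. None of these differences was tested. The colonocyte over crypt log2 ratio of Slc30a10 was -0.23 in germ-free and 1.53 in antibiotic cells, a difference of -1.76, but the germ-free ratio rests on 4 UMI on each side. For Slc39a5 the ratios were -0.24 and 0.20, a difference of -0.44. The germ-free interval of the Slc39a5 ratio included 1 (0.508 to 1.41), and the germ-free sets held 3 against 3 and 31 against 30 UMI in colonocyte and crypt cells. For Mtf1 they were -0.17 and 0.15, a difference of -0.32, and its interval included 1 in both pools.

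The germ-free over antibiotic log2 ratio of Slc39a4, set between goblet and colonocyte gates, differed by 1.58: 0.65 in goblet cells, from 17 germ-free and 60 antibiotic UMI, and -0.93 in colonocytes, from 53 and 1843 UMI. In goblet cells Slc39a4 held 42.5 and 27.7 CPM in germ-free sets 3 and 4, against 14.1, 25.3 and 16.3 CPM in antibiotic sets 1, 2 and 3. The interval of the goblet ratio included 1 (0.874 to 2.77), and the set 3 value rests on 3 UMI (8.77 to 124 CPM). In colonocytes it held 10.1 and 54.7 CPM in the germ-free sets, against 93.5, 101 and 95.8 CPM in the antibiotic sets, and the set 3 value rests on 1 UMI.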

How the results depend on the processing

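Of 314 values recomputed under alternatives, 255 were labelled the same, 52 moved and 7 reversed. Same means within the counting interval of the main value, or, for a count, not far from it. Reversed means a change of sign where the sets had been apart or the interval lay off 0. Other changes of sign are among the same or moved. The counts of members apart without a cell set are among the same and could not have differed. In germ-free cells the colonocyte over crypt ratio of Slc30a10 ran from -1.93 to 3.61, and that of Slc39a5 from -0.395 to 0.475. The log2 ratio of Mt1 (0.63) was 0.52 with median-of-ratios scaling, 0.73 without mitochondrial genes, 0.80 as a mean of cells, 0.80 thinned to 1000 UMI, 0.74 in cells of 1000 UMI or more with no more than 15% mitochondrial UMI (the stricter cells), 0.52 with gates weighted equally and 0.69 where a Y gene but not Xist was found (the Y-gene cells). Mt2 (1.65) was 1.80 as a mean of cells and 1.30 in the Y-gene cells. Slc39a4 (-0.84) was -0.48, -0.34 and -0.45 as a mean of cells, thinned and with gates weighted equally. Mtf1 changed sign to -0.17 thinned, -0.25 with stricter cells and -0.17 in the Y-gene cells.

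Leaving out each cell set in turn gave 0.49 to 0.79 for Mt1, 1.498 to 1.72 for Mt2 and -0.87 to -0.63 for Slc39a4. Dropping a set cannot undo a call of sets apart, so the members apart necessarily stayed at 3 higher and 4 lower. Nothing is read from that. All genes apart ran from 1945 to 3173 higher and 1768 to 2485 lower (1902 and 1582 with all sets). Thinning left 1 member lower and 1121 of all genes higher. The Y-gene cells left 1 member higher and 2 lower. No filter on low genes gave 3528 of all genes higher and 3143 lower. The fewest of all genes lower under any alternative were 1160.

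Colonocyte over crypt ratios without a cell set ran from 1.80 to 6.16 for Slc30a1 and -1.75 to 1.46 for Slc39a4 in germ-free cells, and in antibiotic cells from -0.017 (without set 2) to 0.45 for Mt1 and from -0.39 to 0.13 (without set 3) for Mt2. With gates and levels on thinned cells the antibiotic ratios were 0.81 for Mt2, 2.29 for Slc30a1 and 2.20 for Slc39a4. A gate margin of 0.25 gave 2.33 for Slc39a4 in antibiotic cells, and stricter cells 3.66 for Slc30a1 in germ-free cells. Gates with Mt1 and Mt2 higher were 3 of 3 each with stricter cells, and with Slc39a4 lower 2 of 2 with gates on thinned cells, since fewer gates had enough cells; stricter cells left none for Slc39a4. The causes of the other shifts were not tested. Scrublet marked 17 cells (0.406%), too few for a working call. No paired analysis was possible because each condition was a single pool and the labels give the germ-free and antibiotic cDNA libraries no replicate number in common. Germ-free depth limits the carriers: Slc30a10 had 9 UMI there.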
